A study of Mus musculus with 6 samples.

Results

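Inflammatory signalling, in which the transcription factor NF-kB acts, is known to induce 3 precursors, those of miR-146a, miR-146b and miR-155. Their main arms, mmu-miR-146a-5p, mmu-miR-146b-5p and mmu-miR-155-5p, are the miRNAs described here. They were picked by name from the 2334 small RNAs listed in the deposited tables, 1836 of them miRNAs, and all 3 were counted in every library and passed the filter on low counts. The tissue, taken from male mice aged 7 to 8 weeks with no strain given in the labels, was sclera and choroid together with the retinal pigment epithelium (RPE). In the CNV group, choroidal neovascularization was induced with 25 laser burns per eye (532 nm, 100 mW, 0.1 s, 50 µm) placed around the optic disc, and eyes were removed 7 days later. The control group was made up of mice of matching age that received no laser, and no group with handling alone is in the labels. Each group had 3 libraries (n = 3), each made from 4 pooled eyes. Whether the pools of a group hold different mice is not in the labels. The p-values thus rest on the variation from pool to pool, some of which may be technical.

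A miRNA silences mRNAs that pair with its seed, bases 2 to 8. miR-146a is part of a negative feedback loop. NF-kB raises transcription of its gene after Toll-like receptor or cytokine signals. The mature miRNA represses Irak1 and Traf6, signalling proteins of the same pathway. miR-155 is cut from the noncoding transcript of Mir155hg (BIC) in activated macrophages and lymphocytes, and represses brakes on inflammation such as Socs1 and Inpp5d. In the laser model, macrophages and other leukocytes are known to gather at the burns while new choroidal vessels grow.

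The mature sequences are shown because they decide which reads can be told apart. They are from RefSeq (build GRCm38.p6), 5′ to 3′, with the seed in capitals.
miR-146a-5p: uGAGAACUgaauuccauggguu
miR-146b-5p: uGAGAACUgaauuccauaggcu
miR-155-5p: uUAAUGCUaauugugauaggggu
miR-146a-5p and miR-146b-5p shared the seed GAGAACU, and no other mature miRNA of that table had it. Over 22 bases they differed at 2, G18A and U21C, counted from the 5′ end with the base of miR-146a-5p first. A read trimmed to its first 17 bases would therefore match both, and may have been counted for both. How the authors assigned such reads is not stated in the sources at hand. The seed of miR-155-5p, UAAUGCU, was in no other mature miRNA of the table, and the nearest of 1678 other sequences differed from miR-155-5p at 8 bases.

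The precursors are shown with both mature arms in capitals, since the 3p arms separate the 2 miR-146 genes where the 5p arms nearly coincide.
Mir146 hairpin: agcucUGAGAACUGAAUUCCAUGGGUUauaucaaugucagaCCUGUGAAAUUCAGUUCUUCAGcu
Mir146b hairpin: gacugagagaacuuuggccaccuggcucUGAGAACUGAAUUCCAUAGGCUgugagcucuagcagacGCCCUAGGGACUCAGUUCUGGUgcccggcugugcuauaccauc
Mir155 hairpin: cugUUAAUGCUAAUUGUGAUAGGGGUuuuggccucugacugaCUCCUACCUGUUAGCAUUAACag
Read from their first bases, the 3p arms of the miR-146 precursors were identical at 4 of 22 positions, against 20 of 22 for the 5p arms. The Mir146 gene, which makes miR-146a, is on the minus strand of chromosome 11 (GRCm38, 43374397 to 43374461), in no annotated host gene. Mir146b is on the plus strand of chromosome 19 (46342762 to 46342870), in an intron of Mfsd13a and 30376 bases from Nfkb2, a gene of the NF-kB family itself. Mir155 is on the plus strand of chromosome 16 (84714140 to 84714204), in an exon of Mir155hg.

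Library totals ran from 5057142 counts to 12839386 in control replicate 2. Levels are in CPM, counts relative to a common library total, after scaling by TMM (trimmed mean of M-values). RPE miRNAs were present in every library: the summed level of miR-204 and miR-211 (4 of 4 markers detected) was 4573 to 6546 CPM in CNV and 6841 to 7042 CPM in control pools. The photoreceptor miRNAs miR-183-5p, miR-96-5p and miR-182-5p were at a summed 24736 to 49473 CPM in CNV and 49348 to 75779 CPM in control pools, and the neuron miRNAs (4 of 4 detected) at 2113 to 4867 CPM in CNV and 5204 to 9396 CPM in control pools. The erythrocyte sum was 478 to 3094 CPM in CNV and 636 to 1552 CPM in control pools, that of the endothelial miR-126a arms 35449 to 42881 and 35246 to 45069 CPM, and that of 3 skeletal muscle miRNAs 57437 to 90589 and 34304 to 91114 CPM. In the edgeR fit given below, the median log2 fold change was -0.44 for the RPE, -0.92 for the photoreceptor and -1.03 for the neuron miRNAs. It was 0.46 for erythrocyte, -0.18 for endothelial and 0.12 for muscle miRNAs, against 0.05 over all 997 small RNAs tested. At an unadjusted p under 0.05, edgeR had 2 RPE, 3 photoreceptor and 4 neuron miRNAs lower, against 6.92% of all. None passed after adjustment. No marker was at 0 in all libraries, and the part of these cell types in the levels below was not tested. Fewer cells of a type and less RNA per cell cannot be told apart in such tissue samples.

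The question for these miRNAs was whether they differ between laser-treated and untreated eyes, and whether they do so by the same amount. mmu-miR-146b-5p stood at about double its control level in CNV pools, mmu-miR-146a-5p was higher on average with overlapping pools, and mmu-miR-155-5p averaged 1.24-fold its control level. None of the 3 passed edgeR's quasi-likelihood test over all 997 small RNAs tested (Benjamini-Hochberg adjusted p under 0.05), a test that called 0.301% of them. At an unadjusted p under 0.05, 2 of the 3 were higher in CNV, both miR-146 arms, where 10.8% of all tested small RNAs were. DESeq2 called 1 of the 3 higher, miR-146b-5p, against 4.10% of the small RNAs to which it gave an adjusted p.

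mmu-miR-146b-5p was at 1008, 869 and 715 CPM in CNV replicates 1 to 3, against 441, 311 and 424 CPM in control replicates 1 to 3. The lowest CNV pool lay well above the highest control pool. The means were 864 ± 147 CPM in CNV and 392 ± 70.7 CPM in control (SD, n = 3 each), a 2.20-fold difference (log2 1.14, SE 0.20, 95% interval 1.61-fold to 3.02-fold). It had the fifth smallest p of the 997 in edgeR (adjusted p = 0.0640), and DESeq2 gave an adjusted p of 4.28e-04. Without CNV replicate 3 edgeR also called it (adjusted p = 0.0440), and over the other single libraries left out its adjusted p was 0.0721 to 0.369. The spread between pools was 17.0% of the mean in CNV and 18.0% in control, while counting error was at most 1.55% and 2.19% per library.

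mmu-miR-146a-5p, the more abundant member of the family, was at 4821, 3669 and 2851 CPM in CNV replicates 1 to 3, against 2983, 1948 and 2710 CPM in control replicates 1 to 3. CNV replicate 3 lay below control replicate 1, so the groups overlapped. The means were 3781 ± 990 CPM in CNV and 2547 ± 536 CPM in control, a 1.48-fold difference (log2 0.57, SE 0.23, 95% interval 1.03-fold to 2.15-fold) that did not pass (edgeR adjusted p = 0.257, DESeq2 0.243). The value rested on single pools: the log2 fold change was 0.30 without control replicate 2 and 0.35 without CNV replicate 1.

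mmu-miR-155-5p was at 104, 108 and 87.9 CPM in CNV replicates 1 to 3, against 74.9, 85.3 and 81.3 CPM in control replicates 1 to 3. The groups were apart, with 2.53 CPM between the nearest pools. The means were 99.9 ± 10.6 CPM in CNV and 80.5 ± 5.28 CPM in control, a 1.24-fold difference (log2 0.31, SE 0.16, 95% interval 0.963-fold to 1.60-fold) that did not pass (edgeR adjusted p = 0.372, DESeq2 0.405). The interval includes equal levels in both groups. The levels of miR-155-5p came from 511 to 541 counts in CNV libraries and 398 to 1187 in control libraries, a counting error of 2.90% to 5.01% per library.

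**Figure D1:**
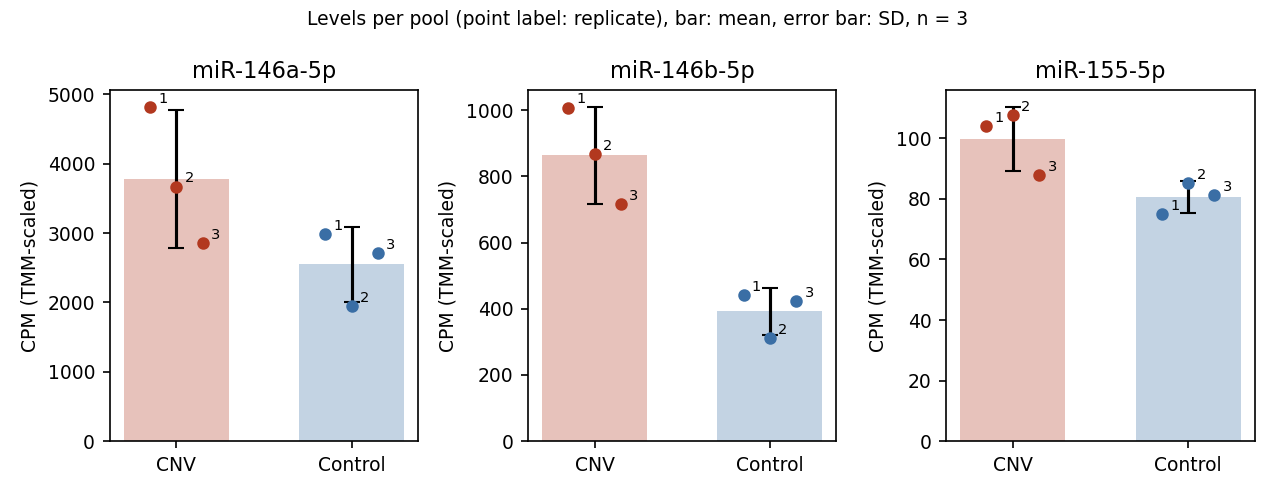
Level of each miRNA in TMM-scaled CPM (vertical axes from 0) in the CNV and control pools; points are pools labelled with their replicate number, bars are means and error bars SD (n = 3). The CNV pools of miR-146b-5p, at 715 to 1008 CPM, all lie above its control pools, at 311 to 441 CPM, while those of miR-146a-5p overlap.

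Non-overlapping pools were found for 2 of the 3, miR-146b-5p and miR-155-5p, where 11.4% of all tested small RNAs had all CNV pools above all control pools. With total counts as the only scaling, 1 of the 3 remained apart, miR-146b-5p, where 7.32% of all small RNAs did. That scaling lowered the median log2 fold change of all tested small RNAs to -0.11, against 0.05 under TMM. Relative to the median, the log2 fold changes were 1.09 for miR-146b-5p, 0.52 for miR-146a-5p and 0.26 for miR-155-5p under TMM, and 1.09, 0.51 and 0.27 with total counts.

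The pools that were high for one miR-146 arm were high for the other. CNV replicate 1 was the highest pool and control replicate 2 the lowest for both, with Pearson's r of 0.90 between their log2 levels over the 6 libraries. This is a description of 6 points that share library preparation and scaling. miR-155-5p departed from that order: control replicate 2 was its highest control pool.

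Ratios of counts within a library do not depend on scaling, and they allow the 3 miRNAs to be compared with each other. For each miR-146b-5p count there were 4.78, 4.22 and 3.99 counts of miR-146a-5p in CNV replicates 1 to 3, against 6.76, 6.26 and 6.39 in control replicates 1 to 3. Put as a share, miR-146b-5p made up 17.3%, 19.1% and 20.1% of the miR-146 5p counts in CNV libraries and 12.9%, 13.8% and 13.5% in control libraries. The 95% Wilson intervals of the CNV libraries started at 16.9% or above, and those of the control libraries ended at 14.2% or below; they cover counting error only. The log2 ratio of miR-146b-5p to miR-146a-5p was -2.11 ± 0.13 in CNV and -2.69 ± 0.06 in control (SD, n = 3 each), a difference of 0.58 or 1.50-fold. The two-sided exact permutation p was 0.1, the smallest that 3 against 3 can give, and 0.15 adjusted over the 3 ratios. Leaving out any single library kept the difference between 0.52 and 0.66. How many of all tested small RNAs are apart between groups relative to miR-146a-5p was not counted.

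miR-146b-5p was also set against miR-155-5p. There were 9.69, 8.07 and 8.14 counts of miR-146b-5p for each miR-155-5p count in CNV libraries, against 5.89, 3.64 and 5.22 in control libraries. The groups did not overlap, and the share of all tested small RNAs apart on that scale was not counted. The log2 ratio was 3.10 ± 0.15 in CNV and 2.27 ± 0.36 in control, a difference of 0.84 or 1.78-fold (exact permutation p = 0.1, adjusted 0.15). For miR-146a-5p against miR-155-5p the ratios of counts overlapped, at 32.5 to 46.3 in CNV and 22.8 to 39.8 in control libraries. The log2 ratio of that pair was 5.21 ± 0.28 in CNV and 4.96 ± 0.41 in control (difference 0.25, exact permutation p = 0.5, adjusted 0.5), and the difference was 0.03 without control replicate 2.

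**Figure D2:**
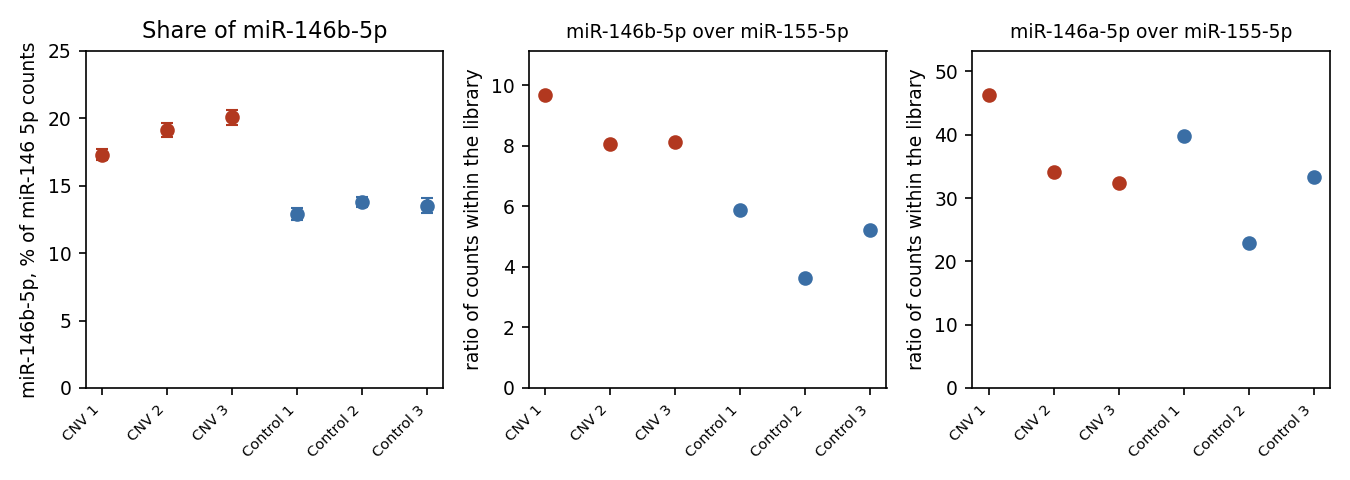
Left, share of miR-146b-5p among the miR-146 5p counts of each library in percent, with 95% Wilson intervals; middle and right, counts of miR-146b-5p and of miR-146a-5p per count of miR-155-5p, with CNV libraries left of control libraries. The share is 17.3% to 20.1% in CNV and 12.9% to 13.8% in control libraries, and only the right panel has overlapping groups. How many of all tested small RNAs are apart on these scales was not counted.

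Since both miR-146 arms carry the same seed, their sum was taken as an estimate of the level of that seed. Reads matching both arms may be counted for each, and how evenly the arms were ligated was not measured. The sum was 5829, 4538 and 3567 CPM in CNV replicates 1 to 3, against 3424, 2259 and 3134 CPM in control replicates 1 to 3. All CNV pools were above all control pools under TMM, as they were for 11.4% of all tested small RNAs. The nearest pools were 143 CPM apart. Scaled by library totals alone the pools overlapped, at 3667 to 5148 CPM in CNV and 2447 to 3798 CPM in control. The sum averaged 4645 ± 1135 CPM in CNV and 2939 ± 607 CPM in control, and miR-146b-5p supplied 27.7% of the difference of 1706 CPM. Fitted as a single row, the summed counts gave a log2 fold change of 0.66 that did not pass edgeR's test (adjusted p = 0.202).

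The levels kept the order miR-146a-5p, miR-146b-5p, miR-155-5p in all 6 libraries. The RNAs are of 22 or 23 bases, so length hardly enters this order, but how evenly each was ligated and amplified was not measured. Among the 1836 listed miRNAs, miR-146a-5p ranked 41 to 47 by count in CNV libraries and 50 to 58 in control libraries. miR-146b-5p ranked 80 to 87 in CNV and 110 to 128 in control libraries. miR-155-5p ranked 189 to 210 in CNV and 205 to 213 in control libraries. The ranks did not overlap for 2 of the 3, both miR-146 arms, where 12.2% of the tested miRNAs ranked higher in all CNV than in all control libraries. For miR-146a-5p this differs from the CPM, which overlapped.

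The 3p arms, which are mostly discarded after the precursor is cut, were rare. miR-146b-3p had 15, 24 and 14 counts in CNV libraries, against 12, 24 and 7 in control libraries, of which control replicate 2 was the deepest. In CPM it was at 2.92, 4.78 and 2.41 in CNV and 2.07, 1.73 and 1.43 in control pools. All CNV pools were above all control pools, as they were for 11.4% of all tested small RNAs. The nearest pools were 0.337 CPM apart, with a counting error of 20.4% to 37.8% per library. The 1.90-fold difference of miR-146b-3p (log2 0.93, SE 0.35, 95% interval 1.09-fold to 3.32-fold) did not pass (edgeR adjusted p = 0.232), and DESeq2 gave it no adjusted p. Its sequence is unlike that of miR-146a-3p, and its fold difference lay inside the interval of its 5p partner. The interval of miR-146b-3p itself also holds the 1.48-fold of miR-146a-5p and the 1.24-fold of miR-155-5p. It is thus too wide to tell the 5p arms apart. miR-146a-3p, not tested for its low counts, had 2, 4 and 4 counts in CNV and 5, 12 and 1 in control libraries. miR-155-3p, also not tested, had 0, 1 and 0 counts in CNV and 2, 4 and 2 in control libraries. Pooled over each group, 3p reads were 0.385% of the miR-146b reads in CNV and 0.478% in control. They were 0.0167% of the miR-146a reads in CNV and 0.0312% in control, or 0.0196% in control without control replicate 2, which held 12 of the 18 control counts. For miR-155 they were 0.0630% in CNV, from 1 count, and 0.395% in control, from 8 counts.

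**Figure D3:**
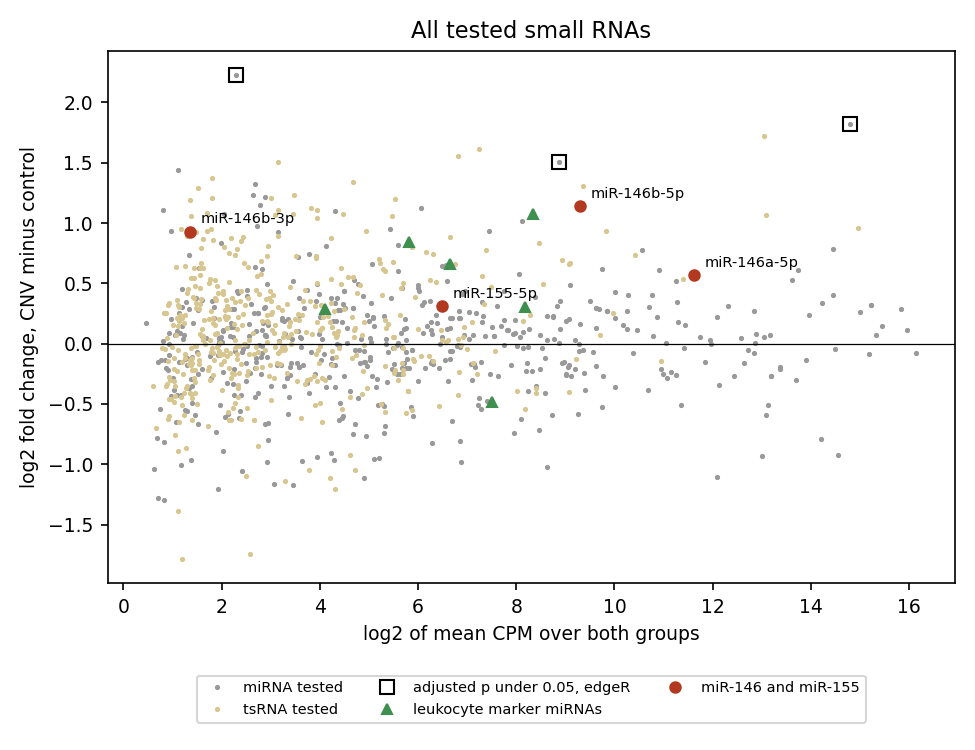
Log2 fold change of CNV minus control against the log2 of the mean CPM for the 997 small RNAs tested, with miRNAs in grey, tsRNAs (tRNA-derived small RNAs) in tan, the 3 small RNAs called by edgeR in squares, leukocyte markers as triangles and miR-146 and miR-155 in red. miR-146b-5p (log2 1.14) lies above its family member miR-146a-5p (0.57) and miR-155-5p (0.31).

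A list of 11 other miRNAs known from mouse or human cells to respond to endotoxin, NF-kB or related stress signals was read from the same fit. edgeR called 1 of the 11 higher and none lower, against 0.301% of all small RNAs. At an unadjusted p under 0.05, 3 of the 11 were higher and 1 was lower, against 10.8% and 6.92% of all. DESeq2 called 2 of the 11 higher and none lower, against 4.10% and 1.56% of the small RNAs to which it gave an adjusted p. It gave none to miR-147-3p, 1 of the 11. The median log2 fold change of the list was 0.04, against 0.05 over all 997. The member called by both was miR-21a-5p, widely induced by injury, at 45363, 50464 and 38230 CPM in CNV and 16940, 9742 and 11163 CPM in control pools (edgeR adjusted p = 0.0183). DESeq2 also called miR-34a-5p, a target of p53 (adjusted p = 0.0101), which edgeR did not (0.127). It was at 228 ± 55.5 CPM in CNV and 119 ± 5.70 CPM in control pools. miR-147-3p, induced in mouse macrophages by Toll-like receptor ligands, was at 3.21 ± 0.761 CPM in CNV and 1.14 ± 0.291 CPM in control (log2 1.44, edgeR adjusted p = 0.127), from as few as 4 counts in a library.

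The log2 fold changes of the rest of that list ran from -0.60 to 0.41, and none was called by either tool. miR-132-3p, induced by CREB and inflammatory signals, was at 133 ± 7.22 CPM in CNV and 130 ± 12.3 CPM in control (log2 0.04), and its cluster partner miR-212-3p at 21.1 ± 1.04 and 16.5 ± 5.51 CPM (log2 0.38). miR-9-5p, induced by NF-kB in human monocytes and abundant in neurons, was at 6943 ± 1064 CPM in CNV and 10489 ± 1598 CPM in control (log2 -0.60, edgeR adjusted p = 0.177). The neuron marker miR-9-3p, from the same precursors, had a log2 fold change of -0.53. let-7e-5p, miR-99b-5p and miR-125a-5p, which share a cluster, had log2 fold changes of 0.41, -0.27 and -0.26. Those of miR-187-3p and miR-301a-3p were -0.30 and -0.41.

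Leukocyte miRNAs were measured beside these values, since blood cells carry miR-146 and miR-155. All 6 markers were counted in every library. Their summed level was 892 to 1294 CPM in CNV pools and 744 to 886 CPM in control pools. edgeR called 0 of the 6; at an unadjusted p under 0.05, 3 were higher and 1 was lower, against 10.8% and 6.92% of all small RNAs. DESeq2 called 3 of the 6 higher, against 4.10% of the small RNAs to which it gave an adjusted p. These were miR-223-3p and both arms of miR-142a (log2 0.66, 0.84 and 1.08 in edgeR's fit). The median log2 fold change of all 6 was 0.48 under TMM, against 0.05 over all 997, and 0.33 with total counts, against -0.11. Among those not called, the lymphocyte miRNA miR-150-5p was at 152 ± 16.9 CPM in CNV and 213 ± 26.4 CPM in control (log2 -0.48), and the macrophage miRNA miR-511-3p at 19.0 ± 1.93 and 15.5 ± 2.13 CPM (log2 0.29). The part of leukocytes in the levels of miR-146 and miR-155 was not tested.

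Set against the summed leukocyte markers of the same library, 1 of the 3, miR-146b-5p, had all CNV pools above all control pools, as had 2.71% of all tested small RNAs on that scale. The log2 level of miR-146b-5p relative to that sum was -0.36, -0.46 and -0.32 in CNV replicates 1 to 3, against -1.01, -1.38 and -0.81 in control replicates 1 to 3. Their means differed by 0.69. The log2 level of miR-146a-5p relative to the sum was 1.73 ± 0.15 in CNV and 1.63 ± 0.32 in control pools, and that of miR-155-5p was -3.48 ± 0.15 in CNV and -3.34 ± 0.20 in control pools. The 6 markers in the sum did not move alike. Their log2 fold changes ran from -0.48 for miR-150-5p to 1.08 for miR-142a-5p, the latter near the 1.14 of miR-146b-5p. A level relative to the sum thus does not stand for a level relative to each marker. The comparison with the sum was added after the values were seen and has no test.

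**Figure D4:**
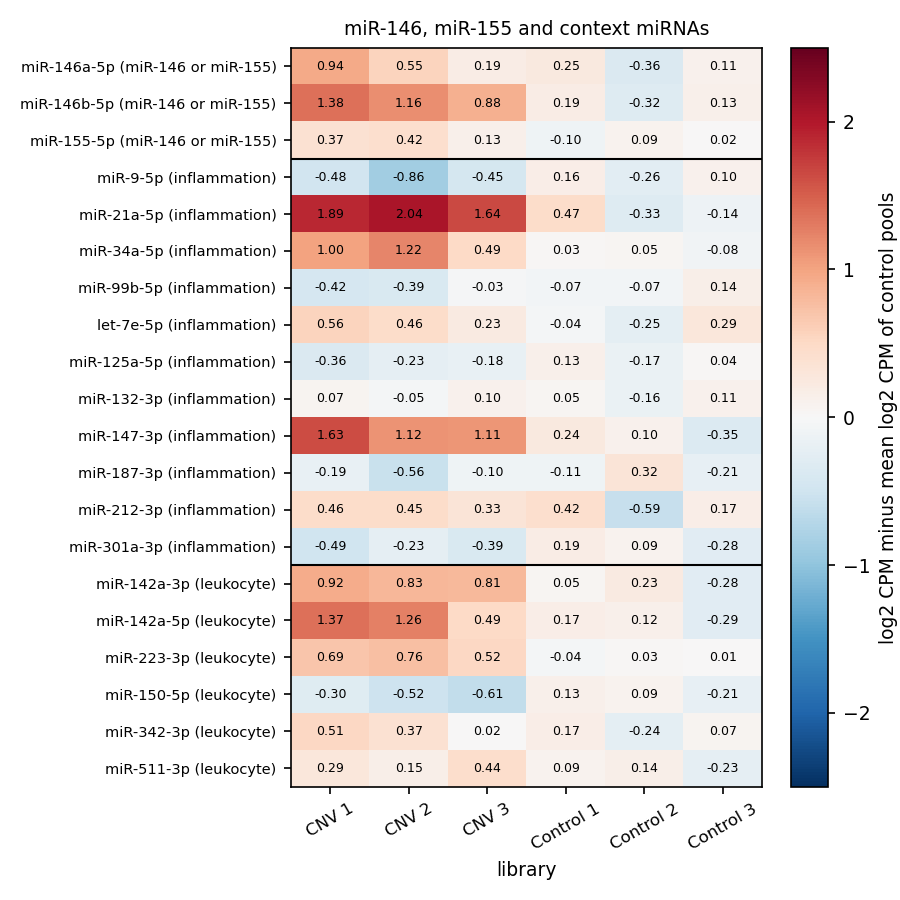
Log2 CPM minus the mean log2 CPM of the control pools for miR-146 and miR-155 (top), the inflammation-induced list (middle) and leukocyte markers (bottom), with CNV libraries left of control libraries and the value printed in each cell. miR-146b-5p is 0.88 to 1.38 above the control mean in CNV pools, and miR-155-5p is 0.13 to 0.42 above it.

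The miRNAs most like each member were those with the highest Pearson's r of log2 CPM over the 6 libraries, among 371 with a mean of at least 10 CPM. For miR-146a-5p these were miR-342-3p, miR-98-5p and miR-26a-2-3p (r = 0.98, 0.97 and 0.96). The first of them, miR-342-3p, is one of the leukocyte markers and overlapped between groups like miR-146a-5p itself (318 ± 53.8 CPM in CNV and 258 ± 37.1 CPM in control). So did miR-98-5p, while miR-26a-2-3p had all CNV pools above all control pools. For miR-146b-5p they were miR-329-3p, miR-34b-5p and miR-10a-5p (r = 0.98, 0.98 and 0.97). All of them had CNV pools above control pools, where 11.4% of all tested small RNAs had. Picking by a high r with miR-146b-5p favours such miRNAs, so this is no separate result. For miR-155-5p they were miR-652-3p, miR-541-5p and miR-337-5p (r = 0.98, 0.96 and 0.96). Unlike miR-155-5p itself, miR-652-3p overlapped between groups, while miR-541-5p and miR-337-5p had CNV pools above control pools. With 6 libraries in 2 groups these correlations follow group differences as well as pool differences, and they are given as a description.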

How the data were processed

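Small RNA libraries (inserts of 14 to 40 nt, per the labels' protocols) were sequenced from 3 CNV and 3 control pools of 4 eyes. The authors' deposited tables give a read count per miRNA and tsRNA. Per the submitters' processing notes reads were handled with Bowtie; no source at hand gives its version, the genome build or the rule for reads matching several miRNAs. The deposited CPM column, a per-million score for which the authors used different totals for miRNAs and tsRNAs, was not tested. In R 4.3.3, small RNAs passing filterByExpr (minimum count 10, minimum total 15) were scaled with TMM and fitted together in edgeR 4.0.16 (quasi-likelihood, no covariate, Benjamini-Hochberg over all 997). DESeq2 1.42.0 and limma 3.58.1 (voom) were alternatives. Log2 levels per library used a prior count of 2. Within-library ratios were tested by exact two-sided permutation. The edgeR steps were also run on simulated counts, drawn independently with known folds, as a check of the steps and not of the calls in these data. Hairpin and mature sequences are from RefSeq (all 3 miRNAs matched) and gene positions from GENCODE M21 of GRCm38, matched by name. With miRNAs of few counts left aside, 24 miRNAs had counts equal to those of another miRNA in all libraries, and none of the 3 was among them. For example, miR-199a-3p and miR-199b-3p had equal levels in every library, at 42754 CPM in CNV replicate 1. A read matching several miRNAs may thus have been counted for each. Whether this holds for reads shared by the miR-146 arms was not tested. The members, the lists and the rule for named miRNAs (the members, their 3p arms, every list member, the most alike miRNAs) were chosen with earlier results of these data known.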

Additional observations from a re-analysis of the deposited data

How the results depend on the processing

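Of the 3 miRNAs, miR-146a-5p and miR-155-5p stayed positive and past no threshold under each alternative run (log2 fold change 0.30 to 0.69 and 0.16 to 0.38 over 15). miR-146b-5p stayed positive (0.89 to 1.23 over 15, adjusted p 5.94e-05 to 0.369) and was called in 5: with miRNAs alone (1.21), without a low-count filter (1.05), with DESeq2 (1.10), with the replicate number as a block (1.14) and without CNV replicate 3; leaving out each library in turn gave 0.89 to 1.23. Both miR-146 arms summed gave 0.66 (adjusted p = 0.202). The count of calls over all small RNAs, 3 as reported, was 6 with miRNAs alone, 88 without a filter, 40 with DESeq2, 36 with the replicate block, and 0 with a mean of at least 20 CPM, where edgeR had 103 at an unadjusted p under 0.05. Leaving out each library gave 0 to 24 calls, 0 without CNV replicate 1, CNV replicate 2, control replicate 2 or control replicate 3 (82 to 118 at an unadjusted p under 0.05) and 24 without CNV replicate 3; the cause was not tested. The labels do not say what a shared replicate number means. Same-numbered libraries correlated at 0.03 to 0.29 in their deviations from the group means, and 5 of 6 correlated best with their own number. These correlations depend on each other, since the deviations share the group means, and no chance level was computed. They do not show whether the libraries were paired. Under the block the adjusted p of miR-146b-5p was 0.0237. For the ratios, the sign-flip test of same-numbered pairs cannot go below 0.25, and gave 0.25, 0.25 and 0.5; no direction changed. Depth limits the 3p arms, at 0 to 24 counts per library.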
